A study of Homo sapiens with 5 samples.

Results

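The D-type cyclins (CCND1, CCND2 and CCND3), the E-type cyclins (CCNE1 and CCNE2) and the kinases that they switch on (CDK4 and CDK6 for the D cyclins, CDK2 for the E cyclins) were followed through a knockdown of the transcription factors SP1 and SP3. These 8 genes were chosen by name, from 20030 gene symbols listed per library, and all 8 were listed in every library. The cells were HCT116, an established human colorectal cancer line of epithelial origin. By their labels, 1 library came from cells given siRNA to SP1, 1 from cells given siRNA to SP3, 1 from cells given both, and 2 from controls. Such small RNAs guide the destruction of a matching transcript. Dose, treatment time and siRNA sequence are not stated, and nothing else in the labels sets the groups apart.

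In textbook terms, growth signals raise D cyclins, which bind CDK4 or CDK6 and start the phosphorylation of the retinoblastoma protein. That frees E2F transcription factors, which raise E cyclins, and cyclin E with CDK2 then completes the phosphorylation and opens S phase. SP1 and SP3 are related zinc finger proteins that bind GC-rich promoter elements called GC boxes, and promoters of several cell cycle genes hold such elements.

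Levels are FPKM, fragments scaled to transcript length and to the library's total, so they can be compared between genes as well as between libraries. The deposited values could be traced back to whole reads: the libraries had been scaled to 15354043 reads (SP1 siRNA), 15970519 reads (SP3 siRNA), 14678068 reads (both siRNAs), 15681880 reads (control 1) and 15899164 reads (control 2). The recovered read numbers are lower limits, and 95% Poisson intervals made from them cover counting error only. More reads would narrow these intervals. Intervals that lie apart thus stay apart, while an overlap does not show that levels are equal. Epithelial markers were high throughout (EPCAM, KRT8, KRT18, KRT19 and CDH1 summed to 3553 to 4209 FPKM in the knockdown libraries and to 4010 and 4014 FPKM in the controls). Of 5 leukocyte markers, LYZ, TYROBP, CD14 and PTPRC were at or near 0 (at most 0.258 FPKM) in the knockdown libraries, against 0.717 to 12.2 FPKM in the controls. CD68, the fifth of these markers, was at 56.2 to 94.1 FPKM in the knockdown libraries and at 61.9 and 58.7 FPKM in the controls. The sum of all 5 leukocyte markers was 56.6 FPKM with the SP1 siRNA, 94.2 FPKM with the SP3 siRNA and 75.4 FPKM with both, against 77.1 and 74.1 FPKM in the controls. Fibroblast markers summed to 4.41 to 8.34 FPKM in the knockdown libraries and to 8.91 and 9.03 FPKM in the controls, and endothelial markers to at most 0.428 FPKM in any library. The epithelial markers did not move together. KRT18 was lower, at 408, 284 and 153 FPKM in the SP1, SP3 and double knockdown libraries, against 750 and 740 FPKM in the controls. CDH1 was also lower, at 38.6, 41.2 and 38.6 FPKM, against 48.6 and 49.1 FPKM. KRT8 was at 1737, 2361 and 2253 FPKM in the same libraries, against 1749 and 1799 FPKM. EPCAM was at 119, 95.7 and 93.7 FPKM, against 99.7 and 105 FPKM, and KRT19 at 1251, 1427 and 1571 FPKM, against 1362 and 1321 FPKM. Fewer cells of a type and less RNA per cell cannot be told apart in such bulk samples, and the part of these markers in the results below was not tested.

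Promoter sequences are shown because SP1 and SP3 bind GC boxes. Windows from 250 bases before to 50 bases after a gene's start (RefSeq, GRCh38.p14) were at hand for 4 of the 8 genes: CCND3, CCNE1, CDK4 and CDK6. The 250 bases before the start follow for CCNE1, which was higher in every knockdown library, and for CDK4 and CDK6, which were lower. CCND3 was lower as well, and its windows are counted below but not printed. Each is written 5′ to 3′ on the gene's strand, and capitals mark GGGCGG or its complement CCGCCC, the core of a GC box on either strand.
CCNE1 promoter, chr19:29811741-29811990, plus strand: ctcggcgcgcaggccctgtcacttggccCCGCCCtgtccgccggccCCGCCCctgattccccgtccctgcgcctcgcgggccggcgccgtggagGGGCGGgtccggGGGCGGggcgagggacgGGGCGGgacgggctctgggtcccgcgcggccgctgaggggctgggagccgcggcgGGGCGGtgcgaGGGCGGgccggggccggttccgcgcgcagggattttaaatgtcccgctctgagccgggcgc
CDK4 promoter, chr12:57752311-57752560, minus strand: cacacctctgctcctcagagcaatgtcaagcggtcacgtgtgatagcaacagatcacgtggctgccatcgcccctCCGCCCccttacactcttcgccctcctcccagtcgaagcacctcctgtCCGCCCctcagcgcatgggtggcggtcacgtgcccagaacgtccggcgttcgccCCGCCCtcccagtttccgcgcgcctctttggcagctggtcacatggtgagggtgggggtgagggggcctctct
CDK6 promoter, chr7:92836574-92836823, minus strand: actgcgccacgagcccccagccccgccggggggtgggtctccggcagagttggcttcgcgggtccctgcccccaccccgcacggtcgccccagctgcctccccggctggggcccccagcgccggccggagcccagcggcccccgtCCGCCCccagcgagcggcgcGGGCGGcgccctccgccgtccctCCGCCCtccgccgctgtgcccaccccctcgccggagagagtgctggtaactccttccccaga

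The CCNE1 window held 7 of these motifs, counting overlapping matches on both strands, the CDK4 window held 3 and the upstream window of CDK6 held 3. All 7, 3 and 3 lay in the bases printed. A downstream CDK6 window held none, and the 3 CCND3 windows held 5, 4 and 0. Of all 35116 promoter windows of that length at hand, 45% held at least 1 of these motifs, and 15.77% held 3 or more. A further 3 shares were 9.064% with 4 or more, 5.137% with 5 or more and 1.495% with 7 or more. The letters describe the windows: a match is not a bound site, and which start HCT116 cells use was not measured.

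Each targeted transcript was reduced where its siRNA was given. SP1 was at 15.8 FPKM with the SP1 siRNA and 16.1 FPKM with both siRNAs, against 36.6 and 37.2 FPKM in the controls. SP3 was at 5.42 FPKM with the SP3 siRNA and 6.67 FPKM with both, against 13.3 and 13.002 FPKM in the controls. SP1 was also below the controls, at 27.5 FPKM, where SP3 alone was targeted (-0.41 ± 0.07, limma adjusted p = 0.000165, adjusted p = 0.284 in the additive model).

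In the controls CCND1 stood far above the other 7 genes, at 359 ± 1.06 FPKM (SD, n = 2, as for the other control means). CDK4 followed with 61.8 ± 0.646 FPKM and CDK2 with 42.1 ± 2.09 FPKM. CCND3 (17.2 ± 0.952 FPKM) and CCNE1 (16.3 ± 1.17 FPKM) did not differ beyond their counting intervals, and CCNE1 and CDK6 (13.9 ± 0.250 FPKM) overlapped in control 1 but not in control 2. CCNE2 stood at 2.31 ± 0.150 FPKM and CCND2, the D cyclin with the lowest level here, at 0.205 ± 0.139 FPKM. The control order was thus CCND1, CDK4, CDK2, CCND3, CCNE1, CDK6, CCNE2 and CCND2 in both libraries.

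The knockdown libraries kept CCND1 at the top and CCND2 at the bottom, but CCNE1 took another place. It ranked 2 of 8 with the SP3 siRNA and 2 of 8 with both siRNAs, against 5 of 8 in each control. With the SP1 siRNA it ranked 4 of 8, and CCND1 was only 1.19 times as high as CDK4 there, against 5.77 and 5.83 times in the controls. Neighbours whose counting intervals overlapped were CCND3 with CDK6 and CCNE2 with CCND2 (SP1 siRNA), CDK4 with CDK2 (SP3 siRNA), and CCNE1 with CDK2 and CDK2 with CDK4 (both siRNAs).

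**Figure D1:**
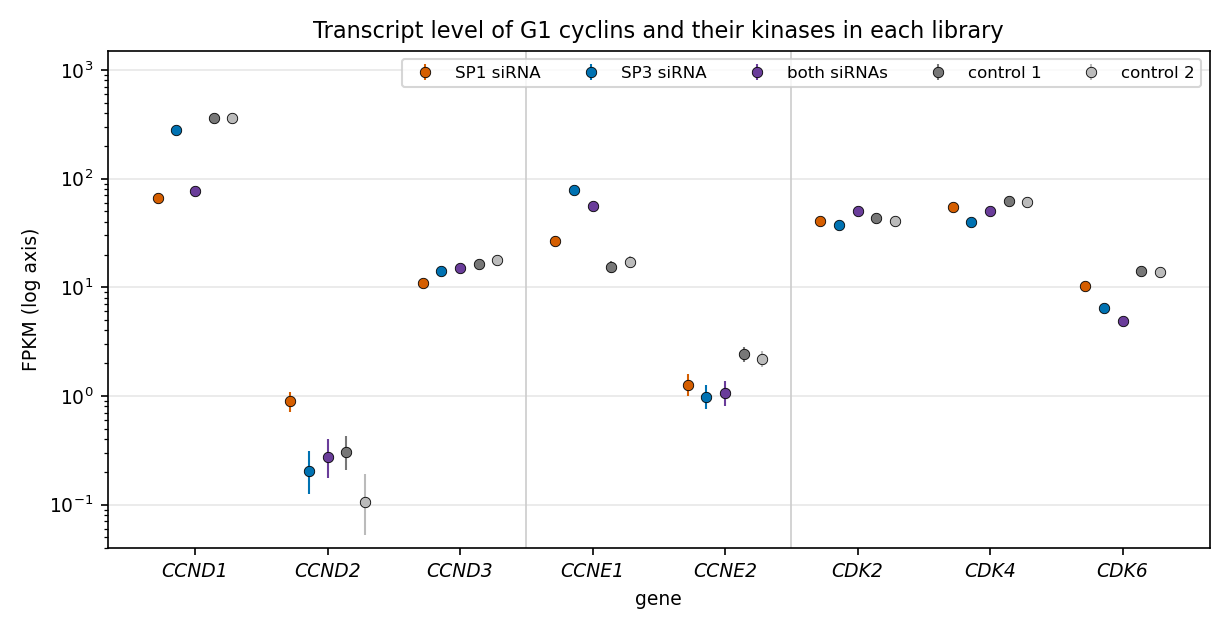
FPKM on a log axis for each of the 8 genes in the 5 libraries, with 95% Poisson intervals (counting error only) as bars. CCND1 sits at 65.8 and 77.5 FPKM in the libraries with the SP1 siRNA or both, against 359 and 358 FPKM in the controls, while CCNE1 is above both controls in all 3 knockdown libraries.

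Differences were tested with limma on log2(FPKM + 1) over the 11728 genes that reached 1 FPKM in some library. Every difference is given on this scale, on which low genes change less than in FPKM itself, and the error given with them is the standard error. Of the 8 genes 7 passed this filter, and CCND2 did not. The spread came from the control pair alone, and each knockdown is 1 library whose own variation was not measured. An additive model, which takes 1 effect per siRNA and counts any departure of the double knockdown as spread, is quoted where it ends a call or turns a direction. For adding an siRNA on top of the other it holds the same number as for that siRNA against the controls. Such a repeat is not a second check.

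With the SP1 siRNA 6 of the 7 tested genes passed the threshold of an adjusted p under 0.05, 1 higher and 5 lower, where 65.4% of all tested genes passed it (36.5% higher and 28.8% lower). With the SP3 siRNA all 7 tested genes passed, 1 higher and 6 lower, where 61.6% of all tested genes passed (29.6% higher and 32.1% lower). With both siRNAs 6 of 7 passed, 2 higher and 4 lower, where 63% of all tested genes passed (31.9% higher and 31.1% lower). The additive model called 1, 2 and 3 of the 7 genes in these comparisons, where it called 7.67%, 15.4% and 16.8% of all tested genes. With so many genes called, passing the threshold says little of these genes by itself. The median difference of the 7 tested genes was -0.40, -0.35 and -0.29 in these comparisons, beside a median over all tested genes of 0.06, -0.02 and 0.01. Sizes therefore carry the description that follows.

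A count without a test was also made. Among 7126 genes averaging 5 FPKM or more, 10.6%, 9.32% and 9.68% were at least 2-fold from each control with the SP1 siRNA, the SP3 siRNA and both, and 0 genes differed that much between the controls. CCND2 and CCNE2 were below that level and so outside the count, although CCNE2 was at 42.6% of the control mean with the SP3 siRNA and at 45.6% with both. Of the other 6 family members, CCND1 was at least 2-fold lower than each control with the SP1 siRNA, as were 5.89% of those genes (4.67% were higher). CCNE1 was at least 2-fold higher and CDK6 at least 2-fold lower with the SP3 siRNA, where 4.14% were higher and 5.18% lower. With both siRNAs CCNE1 was at least 2-fold higher, and CCND1 and CDK6 were at least 2-fold lower, where 4.38% were higher and 5.3% lower. At 1.5-fold the count was 3 of 6 in each comparison, beside 28.9%, 26.5% and 27.1% of those genes, and took in CCNE1 and CCND3 with the SP1 siRNA and CDK4 with the SP3 siRNA.

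The knockdown libraries also differed among themselves. Of the 7 tested genes 5 differed between both siRNAs and the SP1 siRNA alone, 4 higher and 1 lower, where 47.5% of all tested genes did (21% higher and 26.4% lower). Between both siRNAs and the SP3 siRNA alone 5 differed, 2 higher and 3 lower, where 33% did (17.9% higher and 15.1% lower). Between the SP3 siRNA and the SP1 siRNA 5 differed, 3 higher and 2 lower, where 62.7% did (26.5% higher and 36.2% lower). The additive model called 2, 1 and 1 of the 7 genes in these comparisons, beside 15.4%, 7.67% and 10.9% of all tested genes. Its calls for both siRNAs against a single siRNA are those for the added siRNA against the controls.

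**Figure D2:**
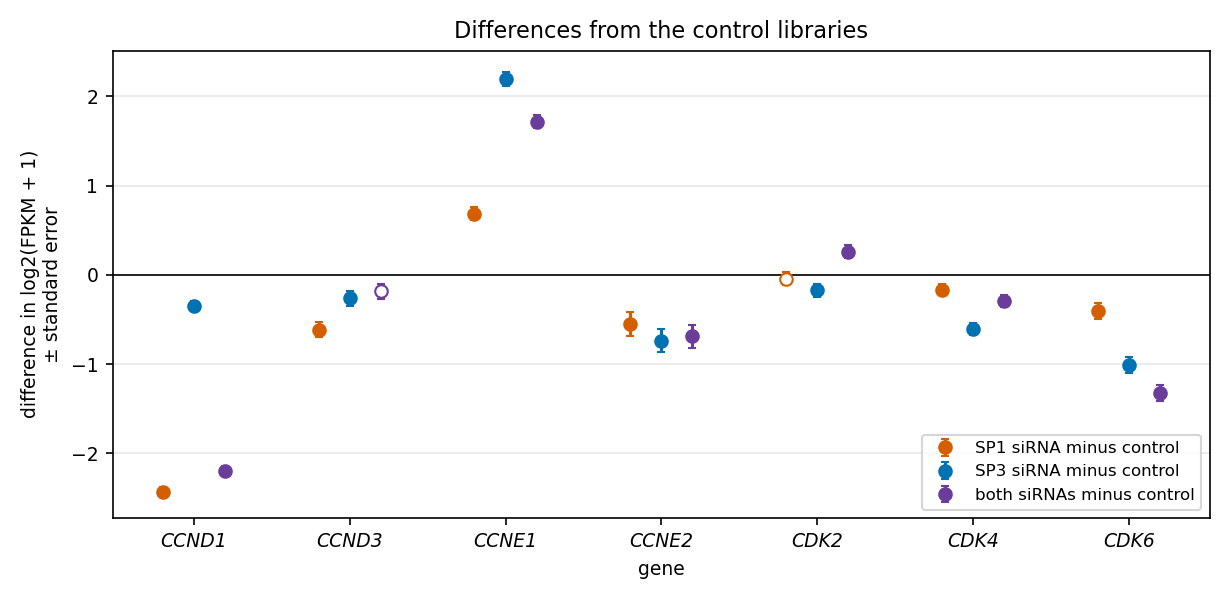
Difference in log2(FPKM + 1) from the controls for the 7 tested genes, as points with standard errors from limma, in the SP1, SP3 and double knockdown libraries. Filled points passed the adjusted p threshold and open points (CDK2 with the SP1 siRNA, CCND3 with both) did not. CCNE1 lies above 0 and CCND1, CCND3, CCNE2, CDK4 and CDK6 lie below 0 in each comparison.

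Cyclin D1, encoded by CCND1, is the main D cyclin of epithelial cells. It measured 65.8 FPKM with the SP1 siRNA, 281 FPKM with the SP3 siRNA and 77.5 FPKM with both siRNAs, against 359 and 358 FPKM in the controls. All 3 knockdown libraries were lower than both controls, and those with the SP1 siRNA stood apart from the SP3 siRNA library. CCND1 was at 18.3% of the control mean with the SP1 siRNA, a difference of -2.43 ± 0.06 (limma adjusted p = 1.17e-13), and only 6 of 11728 tested genes had a more negative difference. With both siRNAs it was at 21.6% of control (-2.196 ± 0.06, limma adjusted p = 4.53e-13), where 21 genes had a more negative difference. With the SP3 siRNA it was at 78.2% of control (-0.35 ± 0.06, limma adjusted p = 5.87e-05). That smaller fall missed the threshold in the additive model (-0.10, adjusted p = 0.66), while the falls with the SP1 siRNA and with both held there (adjusted p = 0.0352 and 0.0218).

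CCND1 was then compared between the knockdown libraries. Adding the SP1 siRNA to the SP3 siRNA gave a difference of -1.84 ± 0.06 (limma adjusted p = 1.27e-10), and only 2 of the 11728 tested genes fell more in that step. Adding the SP3 siRNA to the SP1 siRNA raised it by 0.23 ± 0.06 (limma adjusted p = 0.00797). For this step the additive model only repeats its value for the SP3 siRNA against the controls, -0.10 (adjusted p = 0.66). The SP3 siRNA library exceeded the SP1 siRNA library by 2.08 ± 0.06 (limma adjusted p = 4.38e-12). The values rest on 4330 reads or more per library.

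Cyclin D3 (CCND3) is a D cyclin best known from blood cells. Its level was 10.9 FPKM with the SP1 siRNA, 14.1 FPKM with the SP3 siRNA and 15.0 FPKM with both siRNAs, against 16.5 and 17.8 FPKM in the controls. The knockdown libraries were all below both controls, and the SP1 siRNA library was the lowest. CCND3 fell by 0.62 ± 0.08 with the SP1 siRNA (limma adjusted p = 1.37e-05) and with the SP3 siRNA by 0.26 ± 0.08 (limma adjusted p = 0.0135). With both siRNAs the difference was -0.18 ± 0.08 and missed the threshold (limma adjusted p = 0.0695). The additive model kept neither fall (-0.32 with an adjusted p of 0.262 for the SP1 siRNA, 0.03 with an adjusted p of 0.908 for the SP3 siRNA).

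Cyclin D2 (CCND2), the remaining D cyclin, was near the limit of what these libraries resolve. It measured 0.889 FPKM with the SP1 siRNA (89 reads), 0.202 FPKM with the SP3 siRNA (21 reads) and 0.272 FPKM with both (26 reads), against 0.303 and 0.106 FPKM in the controls (31 and 11 reads). The SP1 siRNA library was the highest of the 5 and its counting interval, 0.714 to 1.09 FPKM, did not meet those of the controls, 0.206 to 0.430 and 0.0530 to 0.190 FPKM. The control intervals did not meet each other either, so the controls differed by more than counting error. CCND2 was under the filter in every library and was not tested.

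As a class the D cyclins therefore followed CCND1. Their summed level was 77.5 FPKM with the SP1 siRNA, 295 FPKM with the SP3 siRNA and 92.7 FPKM with both, against 376 FPKM in each control. CCND1 made up 84.8%, 95.1% and 83.6% of that sum in the knockdown libraries, against 95.5% and 95.2% in the controls. CCND3 made up 14.0%, 4.79% and 16.2%, against 4.39% and 4.75% in the controls, so its share was larger in the libraries with the SP1 siRNA although its level was not. These shares are a description without a test.

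**Figure D3:**
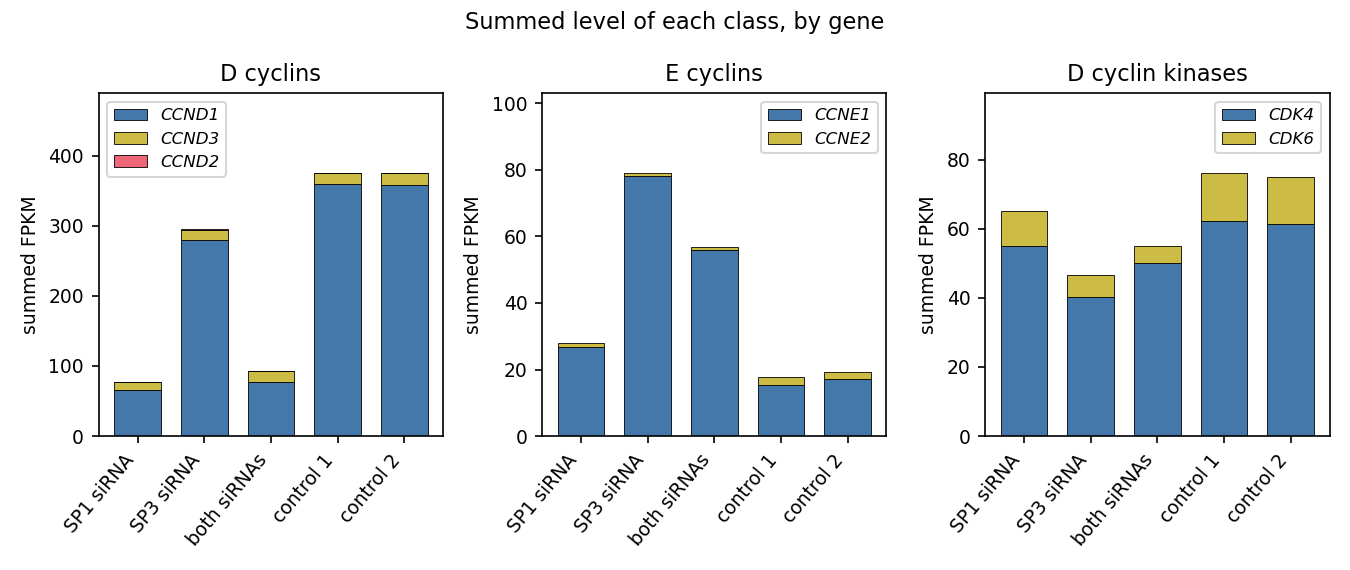
Summed FPKM of the D cyclins, the E cyclins and the kinases CDK4 and CDK6 in each library, stacked by gene. The D cyclin bars are short in the libraries with the SP1 siRNA or both (77.5 and 92.7 FPKM, against 376 FPKM in each control), and the E cyclin bars are tall with the SP3 siRNA or both (79.2 and 56.9 FPKM, against 17.9 and 19.3 FPKM in the controls).

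Cyclin E1 (CCNE1) activates CDK2 at the entry to S phase. It was at 26.8 FPKM with the SP1 siRNA, 78.2 FPKM with the SP3 siRNA and 55.8 FPKM with both siRNAs, against 15.5 and 17.1 FPKM in the controls. All 3 knockdown libraries were above both controls, and the SP3 siRNA library was the highest. With the SP3 siRNA CCNE1 was 4.81 times the control mean (2.199 ± 0.08, limma adjusted p = 8.7e-12), and 8 of the 11728 tested genes rose more. With both siRNAs it was 3.43 times the control mean (1.72 ± 0.08, limma adjusted p = 8.57e-11), with 46 genes above it. In the SP1 siRNA library it was 1.64 times the control mean (0.69 ± 0.08, limma adjusted p = 1.45e-06), and 1408 genes rose more. The additive model kept the rises with the SP3 siRNA and with both (adjusted p = 0.0261 and 0.0333) and not the rise with the SP1 siRNA (0.19, adjusted p = 0.644).

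For CCNE1 the order of the knockdown libraries was tested as well. The SP3 siRNA library exceeded the SP1 siRNA library by 1.51 ± 0.09 (limma adjusted p = 1.99e-09), which the additive model did not keep (adjusted p = 0.0725). Adding the SP3 siRNA to the SP1 siRNA raised CCNE1 by 1.03 ± 0.09 (limma adjusted p = 3.16e-07). Adding the SP1 siRNA to the SP3 siRNA lowered it by 0.48 ± 0.09 (limma adjusted p = 0.000771). For this step the additive model only repeats its value for the SP1 siRNA against the controls, 0.19 (adjusted p = 0.644). CCNE1 thus lay above the controls with either siRNA alone, and lower with both than with the SP3 siRNA alone.

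Cyclin E2 (CCNE2), which shares the role of CCNE1 as a CDK2 partner, went the other way. It measured 1.26 FPKM with the SP1 siRNA, 0.986 FPKM with the SP3 siRNA and 1.05 FPKM with both siRNAs, against 2.42 and 2.21 FPKM in the controls. The knockdown libraries were close together and all below both controls. The differences were -0.55 ± 0.13 with the SP1 siRNA (limma adjusted p = 0.00169), -0.74 ± 0.13 with the SP3 siRNA (limma adjusted p = 0.000159) and -0.69 ± 0.13 with both (limma adjusted p = 0.000286). In the additive model all 3 missed the threshold (adjusted p = 0.273, 0.112 and 0.0682). The pseudocount weighs on so low a gene: in FPKM CCNE2 was 2.35-fold lower than the control mean with the SP3 siRNA, where CDK6 was 2.18-fold lower. CCNE2 did not differ past the threshold between any pair of knockdown libraries (limma adjusted p = 0.291 to 0.829), and 60 to 147 reads stand behind each value. The annotation places INTS8, a gene on the opposite strand, over part of CCNE2. INTS8 was at 10.98 FPKM with the SP1 siRNA, 4.72 FPKM with the SP3 siRNA and 7.44 FPKM with both, against 7.08 and 7.49 FPKM in the controls. No source used here says whether reads were counted by strand, and without it reads of such overlapping genes cannot be told apart. The D cyclins have overlaps too. LTO1, on the opposite strand, is annotated over 1399 bases of CCND1, and AC008012.1, on the same strand, over 31579 bases of CCND2. Neither was listed in the libraries under that name.

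With CCNE1 rising and CCNE2 falling, the E cyclin pool was almost entirely CCNE1 in the knockdown libraries. CCNE1 made up 95.5%, 98.8% and 98.1% of the summed E cyclin level with the SP1 siRNA, the SP3 siRNA and both, against 86.5% and 88.6% in the controls. The summed D cyclin level was 2.76 times the summed E cyclin level with the SP1 siRNA, 3.72 times with the SP3 siRNA and 1.63 times with both, against 21.0 and 19.5 times in the controls. The sums behind the low ratio differed between the single knockdowns. With the SP1 siRNA the D cyclin sum was 77.5 FPKM beside an E cyclin sum of 28.0 FPKM, while with the SP3 siRNA the D cyclin sum was 295 FPKM beside an E cyclin sum of 79.2 FPKM.

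CDK6 encodes a kinase partner of the D cyclins. Its level was 10.2 FPKM with the SP1 siRNA, 6.38 FPKM with the SP3 siRNA and 4.94 FPKM with both siRNAs, against 14.1 and 13.7 FPKM in the controls. Each knockdown library was below both controls, and the double knockdown was the lowest of the 5 libraries. CDK6 was at 46.0% of the control mean with the SP3 siRNA (-1.01 ± 0.09, limma adjusted p = 1.82e-07) and at 35.6% with both (-1.33 ± 0.09, limma adjusted p = 9.25e-09), and both falls held in the additive model (adjusted p = 0.0163 and 0.0233). In the SP1 siRNA library it was at 73.8% (-0.40 ± 0.09, limma adjusted p = 0.00119), which the additive model left at -0.37 with an adjusted p of 0.0792. The double knockdown was also lower than each single one, by -0.92 ± 0.11 against the SP1 siRNA (limma adjusted p = 5.77e-06) and by -0.31 ± 0.11 against the SP3 siRNA (limma adjusted p = 0.0324). For the smaller step the additive model repeats its value for the SP1 siRNA (-0.37, adjusted p = 0.0792), which missed the threshold.

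CDK4, the other kinase of the D cyclins, moved less. It measured 55.04 FPKM with the SP1 siRNA, 40.2 FPKM with the SP3 siRNA and 50.2 FPKM with both siRNAs, against 62.3 and 61.4 FPKM in the controls. Every knockdown library was below both controls, and the SP3 siRNA library was the lowest. The falls were -0.16 ± 0.06 with the SP1 siRNA (limma adjusted p = 0.0343), -0.61 ± 0.06 with the SP3 siRNA (limma adjusted p = 9.41e-07) and -0.29 ± 0.06 with both (limma adjusted p = 0.000948). None held in the additive model (0.04, -0.40 and -0.36, with adjusted p of 0.853, 0.107 and 0.199). With the SP1 siRNA added to the SP3 siRNA, CDK4 was 0.31 ± 0.07 higher than with the SP3 siRNA alone (limma adjusted p = 0.00446). For this step the additive model repeats its 0.04 for the SP1 siRNA (adjusted p = 0.853). TSPAN31, which the annotation places over part of CDK4 on the opposite strand, was at 8.71, 8.85 and 8.15 FPKM in the SP1, SP3 and double knockdown libraries, against 5.999 and 6.26 FPKM in the controls.

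The kinase pool of the D cyclins held a larger share of CDK4 in the knockdown libraries. CDK4 made up 84.3%, 86.3% and 91.1% of the summed CDK4 and CDK6 level with the SP1 siRNA, the SP3 siRNA and both, against 81.6% and 81.7% in the controls. The summed D cyclin level was 1.19 times that kinase sum with the SP1 siRNA, 6.33 times with the SP3 siRNA and 1.68 times with both, against 4.93 and 5.01 times in the controls. The SP3 siRNA library thus held more D cyclin transcript per kinase transcript than the controls, and the libraries with the SP1 siRNA held less.

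CDK2, the kinase partner of the E cyclins, stayed within a narrow range. It was at 40.8 FPKM with the SP1 siRNA, 37.2 FPKM with the SP3 siRNA and 50.6 FPKM with both siRNAs, against 43.6 and 40.6 FPKM in the controls. The SP1 siRNA library lay between the controls, the SP3 siRNA library below them and the double knockdown above them. The difference of -0.04 ± 0.07 in the SP1 siRNA library did not pass the threshold (limma adjusted p = 0.609). With the SP3 siRNA it was -0.17 ± 0.07 (limma adjusted p = 0.0415), a call lost with median-ratio scaling (adjusted p = 0.0604) and turned to 0.03 in the additive model (adjusted p = 0.895). With both siRNAs CDK2 rose by 0.26 ± 0.07 (limma adjusted p = 0.00442), which was 0.19 in the additive model (adjusted p = 0.478). The summed E cyclin level was 0.686 times the CDK2 level with the SP1 siRNA, 2.13 times with the SP3 siRNA and 1.12 times with both, against 0.410 and 0.475 times in the controls. PMEL, annotated on the opposite strand over CDK2, was at 2.76 to 3.82 FPKM in the knockdown libraries and at 3.04 and 2.86 FPKM in the controls.

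The interaction asked whether the double knockdown equals the sum of the single differences. Of the 7 tested genes 6 departed from the sum past the threshold, 5 upward and 1 downward, where 39.5% of all tested genes did (18.5% upward and 21% downward). For CCNE1 the single differences summed to 2.88, and the double knockdown stood at 1.72, a departure of -1.17 ± 0.12 (limma adjusted p = 2.31e-06). At the sum CCNE1 would have been at 126 FPKM, and 55.8 FPKM was measured. For CCND1 the singles summed to -2.78 and the double stood at -2.196, a departure of 0.59 ± 0.09 (limma adjusted p = 8.32e-05). CCND3, CCNE2, CDK4 and CDK2 departed upward by 0.69 ± 0.13, 0.60 ± 0.20, 0.48 ± 0.10 and 0.48 ± 0.11 (limma adjusted p = 0.000677, 0.0258, 0.00138 and 0.00264). For CDK6 the singles summed to -1.42 and the double stood at -1.33, and the departure of 0.09 ± 0.14 did not pass the threshold (limma adjusted p = 0.64). Each of the 6 departures was opposite in sign to the summed single differences. A departure is the double minus that sum, so an error in the sum favours opposite signs by itself. How many of all called genes had opposite signs was not counted, so no conclusion is drawn from the signs. The targets themselves were at 15.8 (SP1) and 5.42 FPKM (SP3) in the single knockdowns and at 16.1 and 6.67 FPKM in the double one.

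**Figure D4:**
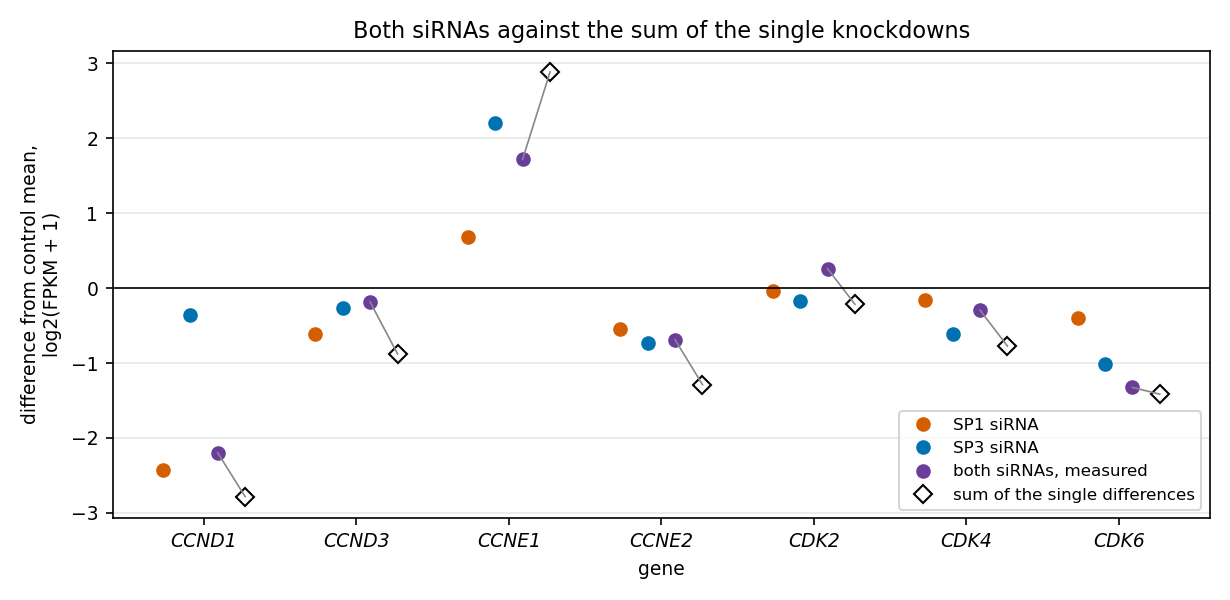
Differences from the control mean in log2(FPKM + 1) for each single knockdown, for both siRNAs as measured, and for the sum of the single differences (open diamonds), with a line from measured to sum. The largest gap is at CCNE1 (1.72 measured, 2.88 as the sum) and the smallest at CDK6 (-1.33 measured, -1.42 as the sum).

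Other genes of the G1 to S phase pathway give the setting. Their counts, here and in the paragraphs that follow, stand beside the share of all tested genes called. That share was 65.4% with the SP1 siRNA (36.5% higher and 28.8% lower) and 61.6% with the SP3 siRNA (29.6% higher and 32.1% lower). With both siRNAs it was 63% (31.9% higher and 31.1% lower). Of 14 E2F target genes of S phase entry 12 fell and 1 rose with the SP1 siRNA, 11 fell and 1 rose with the SP3 siRNA, and 9 fell and 3 rose with both. Their median differences were -0.70, -1.05 and -0.39. None of these calls held in the additive model, where the smallest adjusted p was 0.0649 (PCNA with the SP3 siRNA). RRM2, a subunit of ribonucleotide reductase, was at 18.0 FPKM with the SP1 siRNA and 17.2 FPKM with the SP3 siRNA, against 66.1 and 64.5 FPKM in the controls (-1.80 ± 0.07 and -1.86 ± 0.07, limma adjusted p = 1.77e-11 and 1.39e-11). With both siRNAs the 3 that rose were MCM3 and MCM6, subunits of the replicative helicase, and PCNA, the sliding clamp (0.57, 0.43 and 0.35, limma adjusted p = 7.74e-06, 0.000252 and 0.000252), none of which held in the additive model (adjusted p = 0.119, 0.114 and 0.363). In the additive model RRM2 missed the threshold with either siRNA (adjusted p = 0.576 and 0.538).

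Among cyclins and CDKs of S phase and mitosis, 5 of 6 were tested, and CCNA1, at 0 to 0.0178 FPKM, was not. All 5 fell with the SP1 siRNA and all 5 with the SP3 siRNA (medians -1.28 and -1.30), and 4 fell with both (median -0.69). CCNA2, the S phase cyclin that follows cyclin E on CDK2, was at 6.82 FPKM with the SP1 siRNA, 6.66 FPKM with the SP3 siRNA and 9.98 FPKM with both, against 18.2 and 17.6 FPKM in the controls. CDK1, the mitotic kinase, was at 9.93, 9.22 and 15.9 FPKM in those libraries, against 27.6 and 24.8 FPKM in the controls. CCNE1 thus rose in libraries where CCNA2 fell (limma adjusted p = 8.14e-09, 7.96e-09 and 1.7e-06), although the additive model did not keep the CCNA2 falls (adjusted p = 0.394, 0.367 and 0.191) or those of CDK1 (adjusted p = 0.506, 0.42 and 0.259).

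The 7 CDK inhibitors of the CIP/KIP and INK4 families split. With the SP1 siRNA 1 rose and 4 fell, with the SP3 siRNA 3 rose and 4 fell, and with both 2 rose and 3 fell (medians -0.69, -0.21 and -0.11). CDKN1A, which encodes p21, was at 200 FPKM with the SP1 siRNA, 198 FPKM with the SP3 siRNA and 92.3 FPKM with both, against 343 and 329 FPKM in the controls. Its falls of -0.74 ± 0.06, -0.76 ± 0.06 and -1.85 ± 0.06 held in the additive model (adjusted p = 0.0391, 0.0195 and 0.0218). CDKN1C, which encodes p57, was at 19.9 FPKM with the SP1 siRNA, 107 FPKM with the SP3 siRNA and 68.1 FPKM with both, against 35.5 and 36.5 FPKM in the controls. It fell with the SP1 siRNA (limma adjusted p = 4.43e-08) and rose with the SP3 siRNA and with both (limma adjusted p = 6.58e-11 and 1.84e-08).

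Of 13 pocket proteins and E2F factors, which stand between the kinases and the S phase genes, 4 rose and 6 fell with the SP1 siRNA, 3 rose and 8 fell with the SP3 siRNA, and 2 rose and 5 fell with both (medians -0.11, -0.29 and -0.12). TFDP1, the DNA-binding partner of E2F factors, was at 54.7 FPKM with the SP1 siRNA and 57.1 FPKM with both, against 28.0 and 25.5 FPKM in the controls (1.01 ± 0.07 and 1.07 ± 0.07, limma adjusted p = 1.58e-08 and 9.44e-09). E2F1 was at 1.81 FPKM with the SP1 siRNA, against 4.77 and 5.33 FPKM in the controls (-1.11 ± 0.11, limma adjusted p = 5.22e-07), a fall that the additive model did not keep (adjusted p = 0.0853). It was at 6.66 FPKM with the SP3 siRNA, a rise of 0.34 (limma adjusted p = 0.0151, adjusted p = 0.0793 in the additive model), and at 5.53 FPKM with both, where it did not pass (limma adjusted p = 0.404).

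Of 8 CDK activators and inhibitory kinases 1 rose and 6 fell with the SP1 siRNA, 3 rose and 3 fell with the SP3 siRNA, and 1 rose and 3 fell with both (medians -0.32, -0.09 and -0.10). CDC25C, a phosphatase that activates the mitotic kinase, was at 2.002, 1.05 and 2.47 FPKM in the SP1, SP3 and double knockdown libraries, against 6.60 and 5.97 FPKM in the controls. Its falls passed the threshold (limma adjusted p = 2.19e-07, 5.45e-09 and 1.55e-06) but not in the additive model (adjusted p = 0.542, 0.186 and 0.146). WEE1, which inhibits the mitotic kinase, was at 12.02, 11.1 and 11.5 FPKM in the same libraries, against 17.8 and 17.7 FPKM in the controls, and all 3 falls passed the threshold (limma adjusted p = 4.88e-05, 9.38e-06 and 1.73e-05) but not in the additive model (adjusted p = 0.25, 0.144 and 0.0759). CDC25B was at 21.5 FPKM with the SP1 siRNA, 32.9 FPKM with the SP3 siRNA and 19.9 FPKM with both, against 34.9 and 32.3 FPKM in the controls. Its falls with the SP1 siRNA and with both (limma adjusted p = 3.77e-06 and 7.1e-07) held in the additive model (adjusted p = 0.0417 and 0.0348).

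Of 10 genes that act in the turnover of G1 cyclins none rose and 4 fell with the SP1 siRNA, 3 rose and 3 fell with the SP3 siRNA, and 4 rose and 2 fell with both (medians -0.25, 0.08 and -0.08). FBXW7, the substrate receptor of the ligase that marks cyclin E for destruction, was at 7.24 FPKM with the SP3 siRNA, against 3.803 and 3.64 FPKM in the controls (0.80 ± 0.11, limma adjusted p = 1.13e-05, adjusted p = 0.0843 in the additive model). CUL1, the scaffold of that ligase, was at 1.95 FPKM with the SP1 siRNA and 2.04 FPKM with both, against 6.03 and 5.09 FPKM in the controls, and both falls held in the additive model (adjusted p = 0.0483 and 0.0347). CUL3, the scaffold of another ligase of cyclin E, rose to 19.1 FPKM with the SP3 siRNA, against 12.99 and 13.8 FPKM in the controls (limma adjusted p = 0.000126, adjusted p = 0.065 in the additive model).

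Of 9 transcription factors known to act on the CCND1 promoter 3 rose and 1 fell with the SP1 siRNA, 7 rose and 1 fell with the SP3 siRNA, and 5 rose and 2 fell with both (medians -0.01, 0.38 and 0.28). ETS1, an activator downstream of ERK signalling, was at 9.18 FPKM with the SP1 siRNA, 33.3 FPKM with the SP3 siRNA and 16.1 FPKM with both, against 28.6 and 27.03 FPKM in the controls. It fell by 1.501 ± 0.08 with the SP1 siRNA (limma adjusted p = 3.98e-10, 0.0377 in the additive model). FOSL1, another of these factors, went the other way and was at 209 FPKM with the SP1 siRNA, against 100.1 and 99.5 FPKM in the controls. Its rise of 1.06 ± 0.06 (limma adjusted p = 7.12e-10) did not hold in the additive model (adjusted p = 0.377). MYC, which drives growth and G1 progression, was at 136 FPKM with the SP1 siRNA, 44.1 FPKM with the SP3 siRNA and 47.8 FPKM with both, against 91.9 and 85.8 FPKM in the controls. It rose with the SP1 siRNA (limma adjusted p = 1.02e-06, 0.124 in the additive model) and fell with the SP3 siRNA and with both (limma adjusted p = 5.72e-09 and 1.94e-08). KLF5, a growth-promoting factor of gut epithelium, was at 76.4 FPKM with the SP3 siRNA and 48.2 FPKM with both, against 26.9 and 28.3 FPKM in the controls, with rises of 1.44 ± 0.07 and 0.78 ± 0.07 (limma adjusted p = 2.35e-10 and 1.33e-07, the second at 0.0545 in the additive model). EGR1, an early response factor, was at 67.6 FPKM with the SP3 siRNA and 91.9 FPKM with both, against 23.4 and 29.98 FPKM in the controls (1.32 ± 0.10 and 1.76 ± 0.10, limma adjusted p = 3.44e-08 and 1.5e-09).

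**Figure D5:**
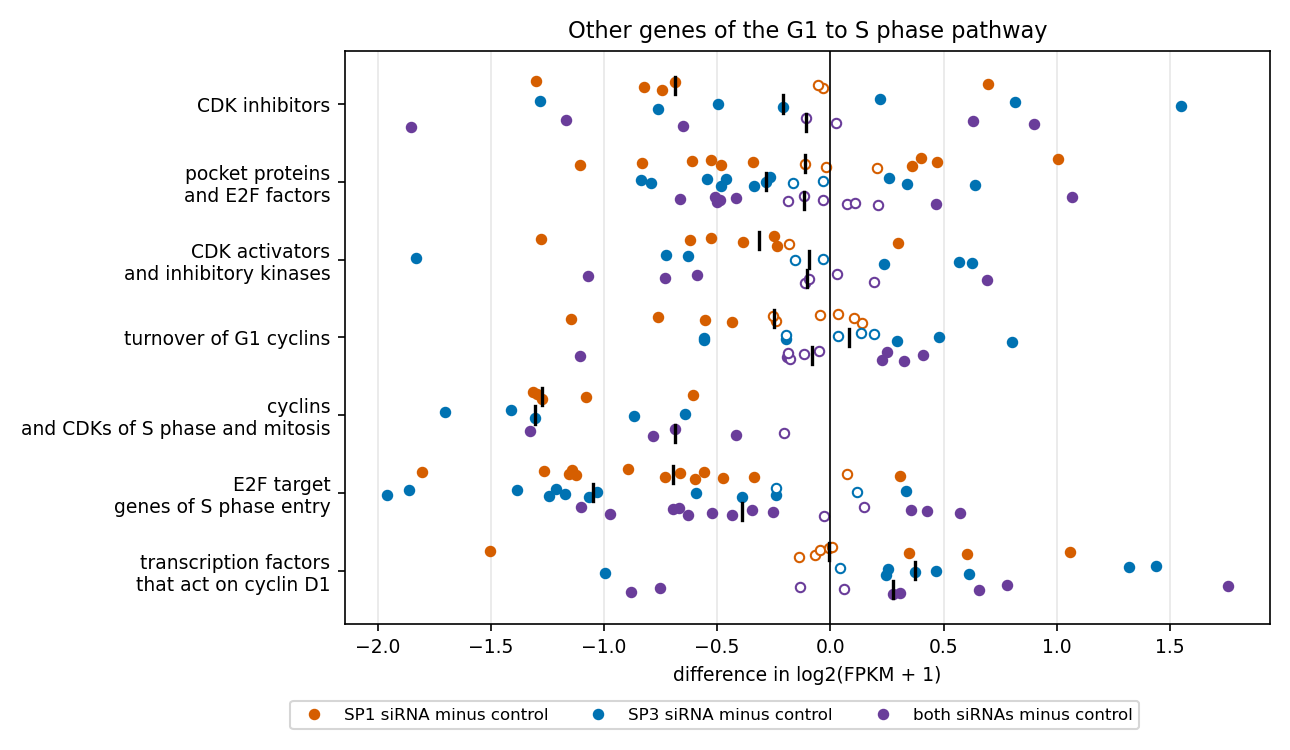
Difference in log2(FPKM + 1) from the controls for the tested genes of 7 pathway lists (1 point per gene, filled where the adjusted p was under 0.05) in the SP1, SP3 and double knockdown libraries, with black bars at the medians. S phase and mitosis cyclins lie below 0 in all 3 comparisons, while inhibitors and cyclin D1 regulators lie on both sides.

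The genes whose values over the 5 libraries were most like those of each family member were found by the distance between their log2(FPKM + 1) values, each taken relative to its own control mean. A smaller distance means a closer pattern, and 6200 named protein-coding genes averaging 5 FPKM or more were compared. For CCND1 the nearest were CDC34, CLPP and AHNAK (distances 0.310, 0.444 and 0.554). CDC34, a ubiquitin-conjugating enzyme, was at 11.1 FPKM with the SP1 siRNA, 45.4 FPKM with the SP3 siRNA and 15.1 FPKM with both, against 58.6 and 60.5 FPKM in the controls. For CCNE1 the nearest were TMEM158, XRCC4 and CPA4 (0.443, 0.456 and 0.495). XRCC4, a DNA end-joining factor, was at 6.69, 16.0 and 11.8 FPKM in the SP1, SP3 and double knockdown libraries, against 3.799 and 3.60 FPKM in the controls.

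The other tested genes had closer neighbours than CCND1 and CCNE1, though not in the order of their changes. A distance on this scale tends to be small where a gene changed little. For CDK6 they were SHISA4, TRIM2 and PHLDA1 (0.0642, 0.182 and 0.184), and SHISA4 was at 5.20, 3.25 and 2.39 FPKM in the SP1, SP3 and double knockdown libraries, against 7.41 and 7.14 FPKM in the controls. Those of CDK4 were MAST3, CHKA and PPFIA1 (0.0789, 0.0868 and 0.0923) and those of CDK2 were ACTL6A, SRSF9 and TGIF2 (0.0880, 0.1001 and 0.115). CCND3 was closest to ITM2C, ATXN10 and LEMD2 (0.102, 0.103 and 0.110), and CCNE2 to AK4, UBE2O and RRP1B (0.0821, 0.0827 and 0.0861). No other member of the family was tried as a neighbour, and a like pattern over 5 libraries is a description.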

How the data were processed

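RNA was sequenced from 5 HCT116 libraries. The authors deposited 1 FPKM value per gene symbol and library, per the file headers. The submitters' processing notes name HTSeq 0.9.1, Cufflinks 2.2.1, HISAT2 2.0.5 and Trimmomatic 0.36, with no role or order. The genome build, annotation and strand setting are not given in these sources. Dividing out length and depth gave whole reads for 17122 of the 17125 genes above 0 (tolerance 0.02 reads), against 1 of 300 genes jittered by an SD of 1%, and served for Poisson intervals only.

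All 7 comparisons were fitted over the whole table with limma 3.58.1 (R 4.3.3; 1 mean per group, trend, pseudocount 1 FPKM, Benjamini-Hochberg adjustment). The fit had 1 residual degree of freedom, from the controls, and 14.0 prior ones. Each knockdown library was taken to vary as the controls do. Whether the controls are separate cultures is not stated, so their spread, and every p-value with it, may be technical only.

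Members and lists were chosen with earlier results of these data known. Named were the 8 members, SP1 and SP3, up to 3 genes per pathway list by smallest p in each comparison with the controls, and the 3 nearest patterns; MCM3, MCM6, PCNA and CCNA1 were named after their values were seen. Alternatives were another pseudocount, filter, scaling or model, and each control left out.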

Additional observations from a re-analysis of the deposited data

Results flagged for a closer look

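By limma's interaction test on log2(FPKM + 1), the effect of 1 siRNA depended on the presence of the other for 6 of the 7 tested genes, beside 39.5% of all tested genes. The departure of the double knockdown from the sum of the single ones was -1.17 for CCNE1, 0.59 for CCND1, 0.69 for CCND3, 0.60 for CCNE2, 0.48 for CDK2 and 0.48 for CDK4. Each value compares 1 library per knockdown, with the spread taken from the 2 controls. With no filter on low values limma called 0 of the 7, and 6 had an unadjusted p under 0.05.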

How the results depend on the processing

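No paired analysis was possible because each knockdown has 1 library and shares fewer than 2 replicate numbers with the controls. Leaving out either control kept the direction of every interaction of the 7 genes and of every difference from the controls but that of CDK2 with the SP1 siRNA, which was not called (-0.04) and was 0.00749 without control 1, as values without a test, since no residual degrees of freedom are left. The counts at 2-fold stayed at 1, 2 and 3 genes without either control and with median-ratio scaling, alternatives chosen after seeing the data. At 1.5-fold the count for the SP1 siRNA was 3.

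The additive model made the fewest calls for the differences from the controls. It called 900 genes with the SP1 siRNA, 1805 with the SP3 siRNA and 1973 with both, against 7666, 7225 and 7387 with 1 mean per group. It called 1805 genes for both against the SP1 siRNA, 900 for both against the SP3 siRNA and 1278 for the SP3 against the SP1 siRNA, against 5566, 3871 and 7353. Of the 7 genes it called 1, 2, 3, 2, 1 and 1 in these comparisons. It turned the difference of CDK4 with the SP1 siRNA to 0.0409, of CCND3 and CDK2 with the SP3 siRNA to 0.0335 and 0.0301, of CCND1 in both against the SP1 siRNA to -0.10 and of CCNE1 in both against the SP3 siRNA to 0.19. By its construction a departure of the double knockdown from the sum becomes spread. Its values and counts for both siRNAs against a single siRNA repeat those for the added siRNA against the controls.

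With no filter on low values 17125 genes were tested and the prior degrees of freedom fell to 1.03. Then 4180 genes were called with the SP1 siRNA, 2106 with the SP3 siRNA, 3157 with both and 2636 for the SP3 against the SP1 siRNA, and limma called 0 for both against either single siRNA and 0 interactions. At an unadjusted p under 0.05 there were 6063 genes for both against the SP1 siRNA, 4443 against the SP3 siRNA and 5376 for the interaction. Of the 7 genes 2 were called with SP1 siRNA and 4 with SP3 siRNA, and 0 for both against either single siRNA or the interaction, where 5, 5 and 6 had an unadjusted p under 0.05. With a mean of at least 5 FPKM required, 5109 of 7127 tested genes were called for the SP1 siRNA, against 7666 of 11728 in the main fit. CCND3 with both siRNAs then passed (limma adjusted p = 0.0487). A pseudocount of 0.1 FPKM changed no call of the 7 genes, and median-ratio scaling ended 1, that of CDK2 with the SP3 siRNA. Depth limits CCND2, with 11 to 89 reads, most.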
